A study of Mus musculus
Rattus norvegicus and Rattus norvegicus and Mus musculus with 18 samples.

Results

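Matricellular and adhesive glycoproteins are secreted proteins that sit in the matrix between cells and set how cells attach to it. The 8 genes described here were chosen by symbol: Fn1 (fibronectin), Tnc (tenascin-C), Vcan (versican), Sparc, Thbs1 and Thbs2 (thrombospondins), and Ccn1 and Ccn2 (also known as Cyr61 and connective tissue growth factor). Each symbol matched 1 of the 17672 genes in the mouse table and 1 of the 14876 genes in the rat table. No measured value entered this rule, but the genes were chosen with earlier results of these data known. In xenografts of 4T1, an established mouse mammary carcinoma cell line, mouse reads come from the tumor cells and rat reads from the host, so each glycoprotein was measured separately in tumor cells and host.

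All tumor-bearing animals were SRG rats, immunodeficient hosts that lack mature lymphocytes, with 4T1 cells placed in the mammary fat pad and tissue taken after 27 days. The labels give the genotype as wildtype and no treatment for every group. Each primary tumor was cut open and separated by dissection into a necrotic core and a non-necrotic rim, so that 5 rats gave a library of each region (Rat3867, Rat3869, Rat3875, Rat3876 and Rat3877). A further 5 libraries were labelled lung, from Rat3869, Rat3875, Rat3876, Rat3877 and Rat3789. Normal mammary gland of rats without a graft (2 libraries) and 1 pellet of 4T1 cells were single-species controls. All were polyA libraries of bulk tissue or cells, so fewer cells of a type and less RNA per cell cannot be told apart.

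Fibronectin is laid down as fibrils by fibroblasts and many tumor cells and is bound by integrins. Tenascin-C, the thrombospondins and Sparc change how cells hold on to such fibrils and to collagen, are high in wounds and tumor stroma, and are low in many resting tissues. Versican is a large proteoglycan that binds hyaluronan, and the CCN proteins are early-response matrix proteins that bind integrins and are standard targets of the transcriptional coactivators Yap and Taz.

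The tumor and lung libraries held 15346400 to 26669410 reads on mouse genes and 3146720 to 10015352 reads on rat genes, with the fewest rat reads in the cores (3146720 to 4221679). Levels are in CPM, counts scaled to the size of the library within the table of 1 species, so a mouse and a rat level are never compared. The library labelled lung of Rat3789 stood apart: its rat alveolar and airway markers (5 genes) summed to 18.7 CPM, against 8557 to 15819.7 CPM in the other 4 lungs. Its rat fibroblast markers summed to 25835 CPM, against 2172 to 6301 CPM in those lungs, so its tissue goes against the label. Differences of members and listed genes between lung and the tumor regions are therefore given with and without it, some only as a range or a call. Fitted differences of cell-type markers include it. Both gland libraries carried 145773 and 102785 CPM on 3 skeletal muscle genes and only 6.19 and 59.1 CPM on 4 epithelial genes, so they stand for muscle-rich tissue as much as for gland. In the 4T1 pellet 4 mouse epithelial markers summed to 3340.1 CPM.

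In the values below, core and rim libraries are listed in the order Rat3867, Rat3869, Rat3875, Rat3876 and Rat3877, and lung libraries in the order Rat3789, Rat3869, Rat3875, Rat3876 and Rat3877. Differences are on the log2 scale of the CPM with their standard error. A gene was called changed at a Benjamini-Hochberg adjusted p under 0.05 in limma, fitted over every gene that reached 1 CPM in 5 or more libraries of the comparison. For core against rim the animal entered the fit as a block. The p-values measure the spread between animals, but the lung fits had no block and treated libraries of the same rat as independent.

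In the tumor cells the matricellular genes that were higher in the necrotic core were Ccn1, Ccn2 and Thbs1. They make up 3 of the 7 members tested, while 0 were called lower. Over all 13070 mouse genes tested, 10.1% were called higher in core and 9.63% lower. The median difference over the 7 tested members was 0.764, and over all tested genes it was 0.01. Cell-type markers among the mouse transcripts moved too. Of 4 epithelial markers 3 were lower in core (Epcam, an epithelial adhesion gene, by -1.20 ± 0.21; limma adjusted p = 0.00723), with sums of 2263 to 3729 CPM in cores and 3839 to 4742 CPM in rims. Of 6 fibroblast markers 3 could be tested and 2 were higher, Dcn by 5.47 ± 0.55 and Pdgfra by 0.92 ± 0.24 (limma adjusted p = 0.000914 and 0.0292), with sums of 103 to 424 CPM in cores and 60.7 to 181 CPM in rims. Of 3 pericyte and smooth muscle markers tested, Pdgfrb was higher by 6.05 ± 0.80 and Acta2 lower by -1.69 ± 0.32 (limma adjusted p = 0.00260 and 0.00935). Their part in the tumor-cell differences was not tested.

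Mouse Ccn1 (GRCm38 chromosome 3, 145646976 to 145649981, minus strand) measured 431, 394, 233, 178 and 188 CPM in the cores and 51.4, 153, 92.2, 79.5 and 77.6 CPM in the rims. Every core lay above every rim, as for 7.08% of all mouse genes tested, and Ccn1 was higher by 1.64 ± 0.25 (limma adjusted p = 0.00433, higher in 5 of 5 rats), a 3.13-fold difference. The increase was widest in Rat3867, whose rim was the lowest and whose core was the highest of the 10 tumor libraries. Mouse Ccn2 (chromosome 10, 24595442 to 24598683, plus strand) measured 267, 328, 334, 204 and 323 CPM in the cores and 73.0, 146, 152, 112 and 20.2 CPM in the rims. The groups again did not overlap, and Ccn2 was higher in core by 1.81 ± 0.40 (limma adjusted p = 0.0155, 5 of 5 rats). Rat3877, whose rim was far below the other rims, gave the widest difference.

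Thbs1 encodes a thrombospondin that inhibits vessel growth and releases TGF-beta from its latent form. Its mouse transcript (chromosome 2, 118111876 to 118127133, plus strand) measured 425, 334, 467, 425 and 520.3 CPM in the cores and 218, 282, 103, 258 and 92.9 CPM in the rims. The groups did not overlap, and Thbs1 was higher in core by 1.32 ± 0.30 (limma adjusted p = 0.0183, 5 of 5 rats). Without Rat3875 the difference was 1.10 ± 0.32 and was not called (limma adjusted p = 0.0704). Thbs2 (chromosome 17, 14665500 to 14694235, minus strand), its close relative, was barely present in tumor cells, at 0.457 to 6.60 CPM in core and 0.0693 to 1.22 CPM in rim, and did not pass the filter on low values. In the rims it rested on 1 to 21 reads a library. Other filters let mouse Thbs2 in, at 3.18 ± 0.69 without a filter and 3.18 ± 0.70 with a mean of at least 10 reads (limma adjusted p = 0.0146 and 0.0158). The mean of 10 reads was reached through the cores, at 10 to 139 reads a library. Both values rest on rims near the limit of detection and are not read as a difference between core and rim.

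Fibronectin was the most abundant member of the 8 in tumor cells per length: its mean level per kilobase of exon was 1179 CPM in core, ahead of Ccn1 at 141, Ccn2 at 102, Sparc at 81.3, Thbs1 at 71.5 and Tnc at 11.4, with Thbs2 at 0.312 and Vcan at 0.103. Mouse Fn1 (chromosome 1, 71585520 to 71653200, minus strand) measured 16116, 5848, 15476, 13370.1 and 18065 CPM in the cores and 12049.6, 8338, 6476, 8009 and 4784 CPM in the rims. The groups overlapped through Rat3869, the only rat whose core was below its rim. The difference of 0.76 ± 0.30 was not called (limma adjusted p = 0.112), whereas without Rat3869 it was 1.08 ± 0.25 and was called (limma adjusted p = 0.0278).

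Fibronectin is held by integrins through the amino acids Arg-Gly-Asp (RGD), and a search of the longest mouse coding sequence of each member, in frame and on the coding strand, set the members apart by this feature. RGD codons were found in Fn1, Thbs1 and Thbs2 and in none of the longest coding sequences of Tnc, Vcan, Sparc, Ccn1 and Ccn2. Of 21584 mouse genes searched the same way, 7.25% held at least 1. The stretches are from the GENCODE M21 transcripts (build GRCm38), written 5′ to 3′ along the coding strand, with the RGD codons in capitals. They are shown because fibronectin and thrombospondin 1 are the abundant RGD-bearing members in the tumor cells.
Fn1, codon 1614: gtcactggcCGTGGGGACagtccagca
Fn1, codon 2181: catgttcccAGGGGAGACgtagactac
Thbs1, codon 927: ggtgatggcCGAGGTGACgcctgcaaa
Thbs2, codon 928: ggtgacggcCGAGGTGACatttgtaaa
The first Fn1 stretch covers bases 4831 to 4857 of a coding sequence of 7434 bases, and the Thbs1 and Thbs2 stretches lie 1 codon apart in coding sequences of 3516 and 3519 bases. A match is a description of the letters and says nothing of binding in these tissues.

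Tenascin-C, Sparc and versican showed no called difference between core and rim in tumor cells. Mouse Tnc (chromosome 4, 63959785 to 64047015, minus strand) measured 96.6, 51.4, 146, 88.8 and 61.8 CPM in the cores and 229, 145, 116, 173 and 60.3 CPM in the rims. The groups overlapped, and the difference of -0.67 ± 0.26 was not called (limma adjusted p = 0.104). It passed without Rat3875, at -0.92 ± 0.23 (limma adjusted p = 0.0493).

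Sparc binds collagen and calcium. Its mouse transcript (chromosome 11, 55394500 to 55423183, minus strand) measured 299, 298, 274, 309.5 and 360.3 CPM in the cores and 196, 198, 246, 316 and 165 CPM in the rims. Its level was nearly alike in the 5 cores and varied more in the rims. The difference of 0.49 ± 0.16 was not called (limma adjusted p = 0.0586), and it was called without the block by rat (limma adjusted p = 0.0402) and without Rat3876 (limma adjusted p = 0.0390). It was called as well after each of 3 same-gene subtractions of misplaced reads (limma adjusted p = 0.0437 to 0.0482). Mouse Vcan (chromosome 13, 89655312 to 89742509, minus strand) was near the limit of detection, at 0.413 to 2.40 CPM in core and 1.07 to 2.80 CPM in rim on 9 to 49 reads, and its difference of -0.37 ± 0.37 was not called (limma adjusted p = 0.517).

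On the opposite strand, genes overlap Tnc (8030451A03Rik), Fn1 (Apol7d), Thbs1 (Gm29233), Ccn2 (Gm15270) and Vcan (Gm16318 and Gm4117). Whether reads were counted by strand was not stated in what was used here, so reads of these partners cannot be told apart from those of the members.

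**Figure D1:**
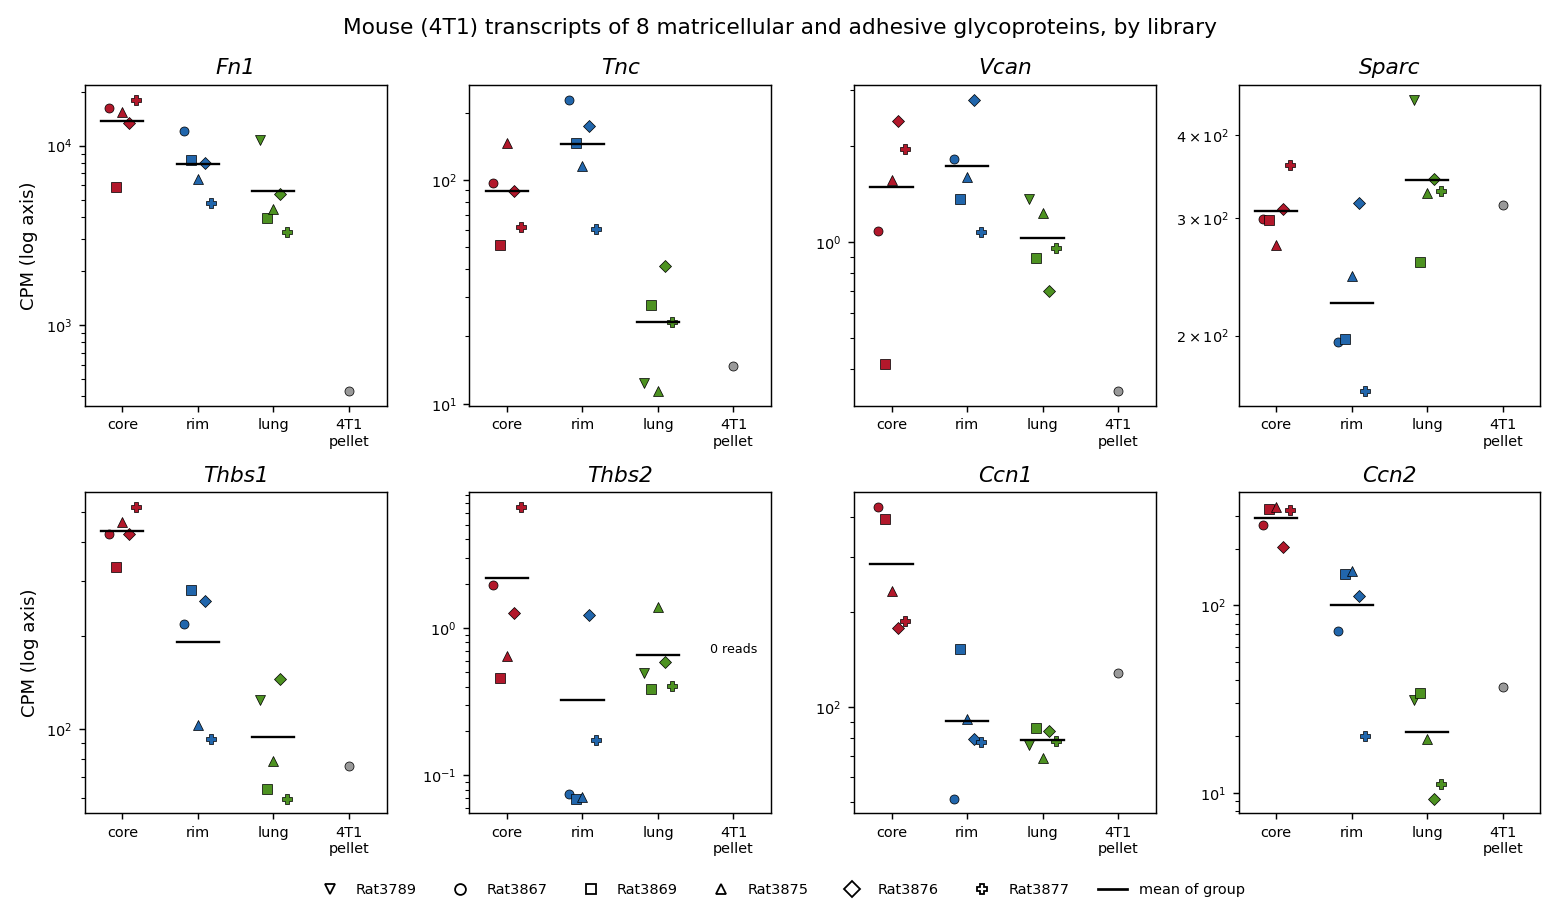
Mouse (4T1) level of each of the 8 genes in CPM on a log axis, by library, with symbols for the rat, a bar for the mean of 5 libraries and a grey point for the 4T1 pellet (scaled by its total count, not with the tumor libraries). Ccn1, Ccn2 and Thbs1 separate core from rim, Fn1 sits far above the pellet in every tumor and lung library, and Tnc is lowest in the lung libraries among the 3 tissue groups.

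In the host most of the matricellular genes were lower in the necrotic core than in the rim. Of these genes only Ccn1 was also called in tumor cells, where it was higher in core. Tnc, Sparc, Vcan, Thbs2, Fn1 and Ccn1 were lower, 6 of 8 members, and 0 were called higher. Over all 13559 rat genes tested 20.1% were called lower in core and 17.5% higher. The median difference of the members was -1.67, beside a median over all rat genes of -5.84e-05.

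Host Tnc measured 229.9, 523, 393, 160.5 and 251 CPM in the cores and 1385, 2092, 1019, 847 and 1131 CPM in the rims. No core reached the lowest rim, as for 14.6% of all rat genes tested, and Tnc was lower by -2.11 ± 0.16 in core (limma adjusted p = 9.79e-05, lower in 5 of 5 rats), the largest host estimate, within its error of that of Sparc. Host Sparc measured 1500.2, 3380.2, 2685, 2402 and 1729 CPM in the cores and 9852, 9878, 11356, 9179 and 6536 CPM in the rims. It was lower by -2.04 ± 0.18 (limma adjusted p = 0.000151, 5 of 5 rats), again without overlap.

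Host Vcan measured 198, 222, 246, 303 and 317 CPM in the cores and 1164, 947, 1176, 832 and 887 CPM in the rims, each group within a narrow range. It was lower in core by -1.97 ± 0.17 (limma adjusted p = 0.000122, 5 of 5 rats). Host Fn1 measured 2861, 1927, 2562, 2002 and 3379 CPM in the cores and 6898, 6485, 8698, 5389 and 5893 CPM in the rims. The groups did not overlap, and Fn1 was lower by -1.40 ± 0.17 (limma adjusted p = 0.000571, 5 of 5 rats).

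The host thrombospondins differed from each other. Host Thbs2 measured 79.8, 291, 335, 243 and 147 CPM in the cores and 608, 954, 839.6, 764 and 607 CPM in the rims. It was lower by -1.93 ± 0.20 in core (limma adjusted p = 0.000278, 5 of 5 rats). Host Thbs1 measured 579, 1013, 1045, 309 and 399.9 CPM in the cores and 332, 885, 707, 366 and 1025 CPM in the rims. The groups covered nearly the same range, 3 rats were higher in core and 2 lower, and the difference of -0.0082 ± 0.28 was not called (limma adjusted p = 0.985). Its sign changed under other scalings, and without Rat3876 and Rat3877 it was 0.52 ± 0.16, still not called (limma adjusted p = 0.0537).

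Host Ccn1 measured 161, 296, 202, 148 and 109 CPM in the cores and 205, 361, 214, 277 and 247 CPM in the rims. The groups overlapped, but each core was below its own rim, and Ccn1 was lower by -0.56 ± 0.16 (limma adjusted p = 0.0248). This call was lost without the block by rat (limma adjusted p = 0.0832), without Rat3876 (limma adjusted p = 0.0786) and without Rat3877 (limma adjusted p = 0.0703). Host Ccn2 measured 340.4, 1026, 1234, 484 and 203 CPM in the cores and 462, 1687, 1022, 601 and 1359 CPM in the rims. Its difference of -0.79 ± 0.37 was not called (limma adjusted p = 0.125), and Rat3875 was the only rat with a higher core.

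Markers of several cell types moved between core and rim in the host. All 5 rat fibroblast markers in the table were lower in core (median -3.05), and their summed level was 3228 to 11046 CPM in cores and 31312 to 57597 CPM in rims. Of 6 pericyte and smooth muscle markers, 4 were lower and 0 higher, with sums of 434 to 958 CPM in cores and 1289.8 to 1894 CPM in rims. All 4 neutrophil markers were higher in core (median 1.56), with sums of 168 to 1184 CPM in cores and 121 to 169 CPM in rims. Of 6 macrophage markers 3 were higher and 3 lower, with sums of 7328 to 11308 and 5622 to 9129 CPM. The part of these markers in the host differences was not tested.

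Set against the summed fibroblast markers of the same library, the host members did not keep the order of their CPM. The ratio of Sparc to that sum was 0.243 to 0.465 in cores and 0.193 to 0.235 in rims, and that of Fn1 was 0.202 to 0.886 in cores and 0.128 to 0.188 in rims. The Fn1 ratio was not corrected for mouse reads placed on rat Fn1. By the same-gene rate of the 4T1 pellet these would be 41.0 to 77.8% of its core reads and 5.33 to 13.2% of its rim reads. Its separation of core from rim thus depends on that rate. The Thbs1 ratio was 0.0343 to 0.179 in cores and 0.00652 to 0.0327 in rims, and the Ccn1 ratio was 0.0164 to 0.0499 in cores and 0.00371 to 0.00860 in rims. The ratios of Thbs2 (0.0247 to 0.0375 in cores and 0.0119 to 0.0227 in rims) and Ccn2 (0.0519 to 0.112 and 0.00907 to 0.0434) likewise lay higher in every core than in every rim. The Tnc ratio (0.0178 to 0.0712 in cores and 0.0177 to 0.0498 in rims) and the Vcan ratio (0.0223 to 0.0810 and 0.0198 to 0.0283) overlapped. The sum is set by collagen genes among its 5 markers. It was itself lower in every core than in the rim of the same rat, by -3.98 to -2.14 on the log2 scale. Any gene that fell by less than this sum has a higher ratio in core, so a higher ratio is not particular to the members. No share over all rat genes was computed, and these ratios were not tested.

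**Figure D2:**
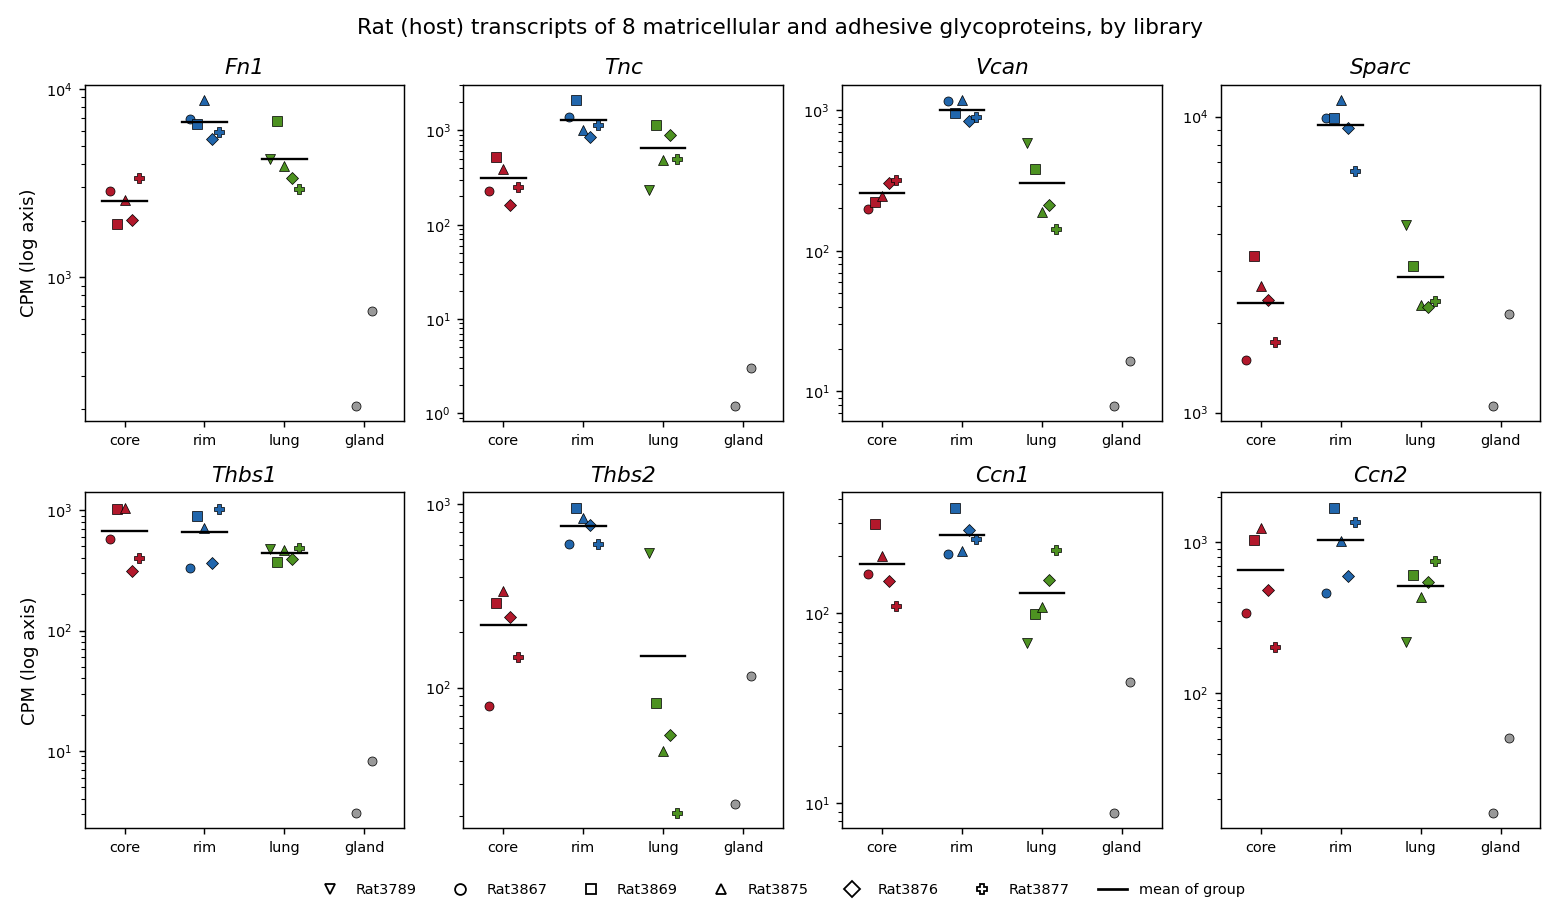
Rat (host) level of each of the 8 genes in CPM on a log axis, by library, with symbols for the rat, a bar for the mean of 5 libraries and grey points for the 2 gland libraries (scaled by their total counts). Fn1, Tnc, Vcan, Sparc and Thbs2 lie lower in every core than in every rim (as do 14.6% of all rat genes tested), Thbs1, Ccn1 and Ccn2 overlap, and the Rat3789 library labelled lung is far above the other lungs for Thbs2.

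The core-rim difference of tumor cells and host was then compared directly. For each rat, the core minus rim difference of the rat gene was subtracted from that of the mouse gene, which tests whether tumor cells and host differ relative to the other genes of their own species. Over 9740 symbols tested in both species, 19.2% were called higher in the mouse difference and 16.6% lower. Of the 7 members tested, 6 were called higher and 0 lower, and the median was 2.17.

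The widest gap was for Ccn2, at 2.60 ± 0.75 (limma adjusted p = 0.0272), which without Rat3867 was not called (limma adjusted p = 0.0587). Sparc followed at 2.53 ± 0.21 (limma adjusted p = 0.000182) and Ccn1 at 2.20 ± 0.26 (limma adjusted p = 0.000618). Fn1 differed by 2.17 ± 0.25 (limma adjusted p = 0.000537). The gap of Vcan was 1.60 ± 0.29 (limma adjusted p = 0.00361), though it rests on a mouse gene with few reads, and that of Tnc was 1.44 ± 0.21 (limma adjusted p = 0.00146). Thbs1 had a gap of 1.33 ± 0.49 that was not called (limma adjusted p = 0.0638). In all 7 tested genes the mouse difference lay above the rat difference in 5 of 5 animals, from 0.0524 for Thbs1 in the closest animal to 6.75 for Ccn2 in the farthest. The sizes of some gaps depended on misplaced reads: with same-gene rates subtracted they were 6.91 ± 1.67 for Tnc, 7.16 ± 0.41 for Vcan and 3.46 ± 0.38 for Fn1, all called (limma adjusted p = 0.0136, 8.4e-05 and 0.000514). The rate of both glands together left 0 mouse reads in 5 rims for Vcan and in 2 rims for Tnc. The subtracted gaps of Vcan and Tnc thus rest on the 0.5 read built into the values and are no bounds. Mouse Thbs2 entered only with other filters, with a gap of 5.11 (limma adjusted p = 0.00193 without a filter). That gap rests on rims of 1 to 21 mouse reads and is not read as a difference.

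**Figure D3:**
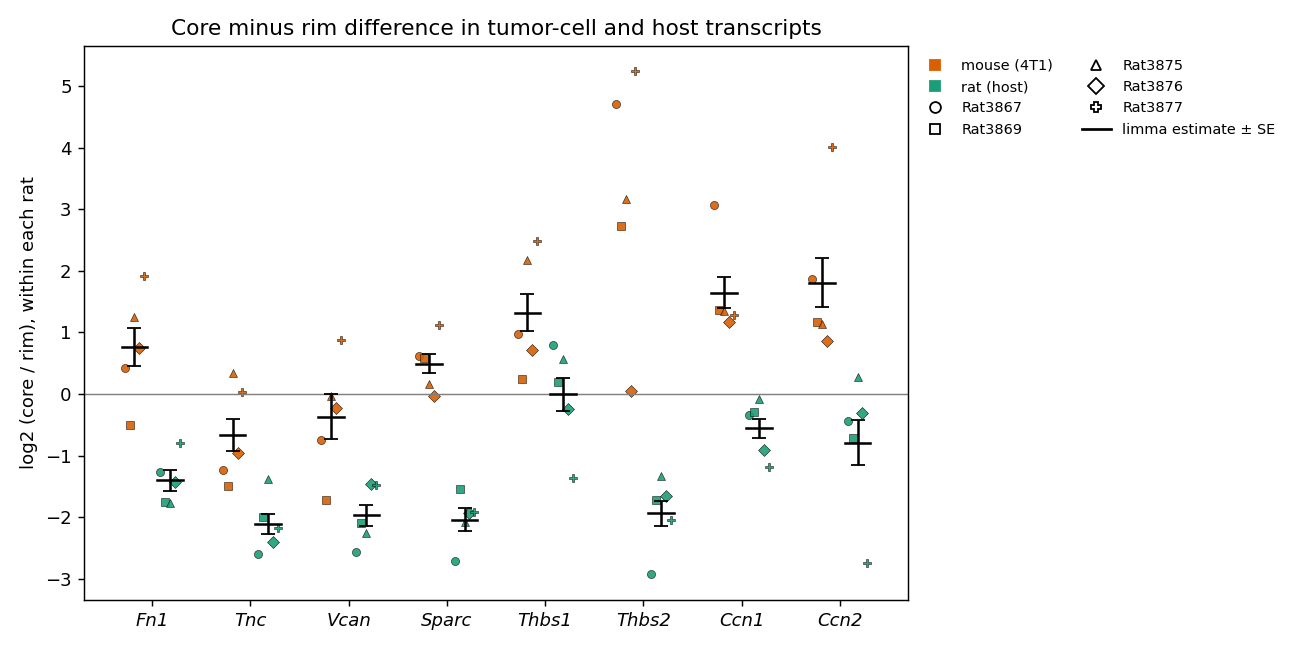
Log2 ratio of core to rim within each of the 5 rats for mouse (orange) and rat (green) transcripts of the 8 genes, with the limma estimate ± SE in black. Rat ratios of Tnc, Vcan, Sparc, Thbs2 and Fn1 are below 0 in 5 of 5 rats and mouse ratios of Ccn1, Ccn2 and Thbs1 are above 0 in 5 of 5; mouse Thbs2 has no estimate because it did not pass the filter on low values.

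Reads can be placed on the wrong species, and the single-species controls hold reads on genes of the other species. These are treated below as misplaced reads, and their source was not tested. In the 4T1 pellet 235 reads fell on rat Fn1 beside 12583 on mouse Fn1, 1.87 rat reads per 100 mouse reads. Applied to the tumors, this rate would account for 41.0 to 77.8% of the rat Fn1 reads in the cores and 5.33 to 13.2% in the rims. If misplaced reads follow the total of mouse reads instead, the shares are 1.29 to 3.11% and 0.283 to 0.532%. With the same-gene rate subtracted, host Fn1 was lower in core by -2.65 ± 0.26 (limma adjusted p = 0.000215), against -1.40 ± 0.17 as deposited, so its size depends on this rate and its direction does not.

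In the other direction the gland libraries gave no steady rate. Mouse reads on Tnc numbered 16 and 12 in gland libraries 1 and 2, beside 25 and 64 reads on rat Tnc. Between the libraries the rat reads on Tnc, Sparc, Fn1, Thbs1, Ccn1 and Ccn2 rose 2.10- to 5.08-fold, while the mouse reads on them changed 0.750- to 1.42-fold. For Thbs2 and Vcan the mouse reads were few and rose too, from 1 to 9 and from 1 to 3. The rat reads on these genes rose 5.14- and 2.15-fold. The joint same-gene rate of Tnc would account for 47.2 to 151% of the mouse Tnc reads in rims and 205 to 520.0% in lungs, more reads than were there in all 5 lung libraries. By library totals the shares are at most 0.283% and 2.10%.

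For Ccn1, Ccn2 and Thbs1 in the cores the same-gene shares were 0.347 to 0.651%, 0.264 to 1.33% and 3.07 to 11.0%, and these genes stayed higher in core after subtraction, at 1.70 ± 0.26, 1.99 ± 0.48 and 1.90 ± 0.51 (limma adjusted p = 0.00392, 0.0215 and 0.0312). With the rate of gland library 1 alone, Ccn2 and Thbs1 were not called (limma adjusted p = 0.0517 and 0.142). The mouse Tnc and Vcan differences turned to higher in core under each same-gene subtraction. Vcan was then called higher in all 3 (limma adjusted p = 0.00162 to 0.00219), and Tnc was called higher with gland library 1 (8.90 ± 1.15, limma adjusted p = 0.00254) but not with both glands or library 2 (limma adjusted p = 0.0830 and 0.521). The sign of the mouse Tnc difference between core and rim thus depended on whether these rates were subtracted. These subtractions left Vcan with 0 reads in 2 to 5 rims, and gland library 1 left Tnc with 0 reads in 4 rims. The turned values are therefore no bounds. The mouse levels of Thbs2 and Vcan in rims were no larger than the same-gene expectation (113 to 1625% and 121 to 168%). In the lungs the same-gene shares of mouse Thbs1 and Ccn2 were 35.1 to 122% and 5.44 to 86.0%, which left Thbs1 with 0 reads in 1 lung library. Subtraction by library totals changed no call among the members.

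**Figure D4:**
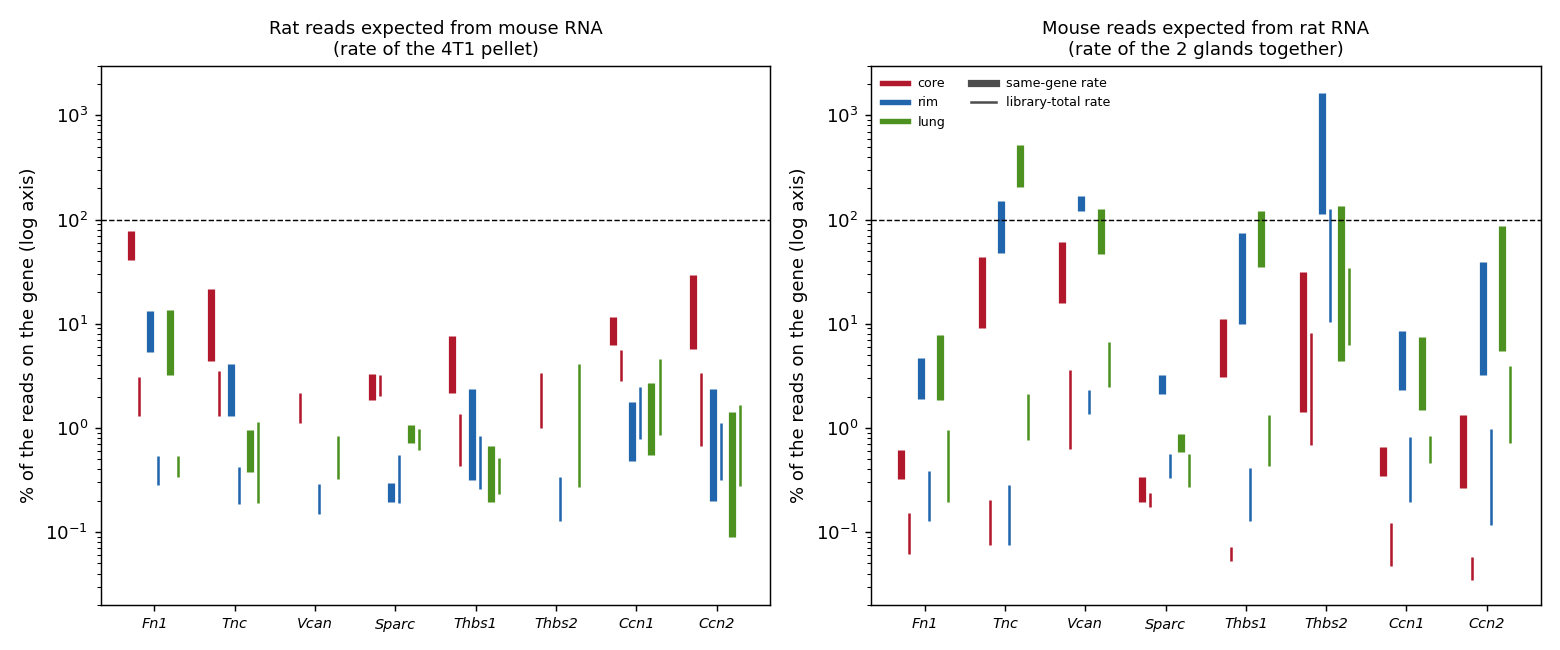
Share of the reads on each gene that the single-species controls would account for, in percent on a log axis, as the range over the 5 libraries of core, rim and lung. Thick bars use the rate of the same gene (not shown where the control had under 20 reads on the gene of its own species), thin bars the library total, and the dashed line marks 100%; same-gene shares pass 100% in at least 1 library for mouse Tnc, Vcan and Thbs2 in rim and lung and mouse Thbs1 in lung, and among rat genes Fn1 in core has the largest.

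In the lungs the tumor cells carried less Tnc and Ccn2 than in the rim, and more Sparc. Of the 7 members tested, 2 were lower and 1 higher in lung than in rim, while over 12970 genes 10.2% were called lower and 9.91% higher. Mouse Tnc measured 12.4, 27.8, 11.4, 41.3 and 23.2 CPM in the lungs, below every rim, as for 6.75% of all mouse genes tested. It was lower by -2.68 ± 0.40 (limma adjusted p = 0.00130), or by -2.49 ± 0.40 without the library labelled lung of Rat3789 (limma adjusted p = 0.00251). The call on Tnc was lost with the joint same-gene gland rate subtracted and with that of gland library 1 (limma adjusted p = 0.0548 and 0.429). Both rates left 0 reads in all 5 lung libraries, and that of gland library 1 also in 4 rims.

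Mouse Ccn2 measured 31.4, 33.9, 19.4, 9.30 and 11.2 CPM in the lungs and was lower than in rim by -2.15 ± 0.54 (limma adjusted p = 0.0175; -2.34 ± 0.57 and 0.0161 without Rat3789). The groups overlapped through the low rim of Rat3877, and the call was lost without Rat3875 (limma adjusted p = 0.0728) or Rat3876 (limma adjusted p = 0.0856). Mouse Sparc measured 452, 258, 328, 343 and 329 CPM in the lungs and was higher than in rim by 0.62 ± 0.18 (limma adjusted p = 0.0290; 0.52 ± 0.17 and 0.0494 without Rat3789). That call was lost when Rat3867, Rat3869, Rat3875 or Rat3877 was left out (highest limma adjusted p = 0.0841).

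The other members were not called between lung and rim in tumor cells. Mouse Fn1 measured 10789, 3928, 4406, 5406 and 3312 CPM, with Rat3789 far above the other lungs, and its difference of -0.58 ± 0.31 (limma adjusted p = 0.208) became -0.85 ± 0.24 without Rat3789, which was called (limma adjusted p = 0.0285). Mouse Ccn1 was steady across the lungs at 76.3, 86.1, 69.0, 84.0 and 78.1 CPM and differed from rim by -0.12 ± 0.22 (limma adjusted p = 0.741; -0.11 ± 0.24 and 0.783 without Rat3789). Mouse Thbs1, at 124, 64.3, 78.8, 145 and 59.6 CPM, differed by -0.96 ± 0.35 (limma adjusted p = 0.0716; -1.08 ± 0.37 and 0.0574 without Rat3789), and with the rat as a block Thbs1 and Fn1 were called lower (limma adjusted p = 0.0353 and 0.0233). Mouse Vcan, at 0.702 to 1.37 CPM, differed by -0.71 ± 0.30 (limma adjusted p = 0.111; -0.83 ± 0.31 and 0.0813 without Rat3789), and mouse Thbs2, at 0.387 to 1.38 CPM, did not pass the filter. All 4 mouse epithelial markers were lower in lung than in rim, Epcam by -3.11 ± 0.32 and Cdh1 by -2.54 ± 0.42 (limma adjusted p = 0.000226 and 0.00227), with sums of 1866 to 2816 CPM in lungs and 1866 to 2625 CPM without Rat3789. Their part in the differences of the members was not tested.

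Against the core, 5 of 7 members were lower in lung tumor cells and 0 higher, where 19.1% of 13058 genes were called lower and 17.1% higher. Ccn2 was lower by -3.95 ± 0.32 (limma adjusted p = 7.04e-06), a 15.5-fold difference. Thbs1 was lower by -2.28 ± 0.23 (limma adjusted p = 2.19e-05), Tnc by -2.01 ± 0.35 (limma adjusted p = 0.000832) and Ccn1 by -1.76 ± 0.22 (limma adjusted p = 9.46e-05). For these 4 genes no lung library reached the lowest core, as for 10.9% of all mouse genes tested. Fn1 was lower by -1.34 ± 0.35 (limma adjusted p = 0.00907), a call lost without Rat3875 or Rat3877 (limma adjusted p = 0.0580 and 0.0650). Sparc and Vcan were not called (0.13 ± 0.13 and -0.34 ± 0.43, limma adjusted p = 0.444 and 0.556). Without Rat3789 the same 5 genes were called, from -4.15 for Ccn2 to -1.62 for Fn1, and Sparc and Vcan stayed uncalled (0.028 and -0.46). The 2 lung comparisons and the core-rim comparison share libraries and are not independent of each other.

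The order of levels across tissues thus differed by gene in the tumor cells. Ccn2 descended from core (291 ± 55.9 CPM, mean ± SD, n = 5) to rim (101 ± 55.0) to lung (21.1 ± 11.3), with each step called. Ccn1 was high in core (285 ± 119) and not distinguishable between rim (90.7 ± 37.8) and lung (78.7 ± 6.76). Thbs1 ran from core (434 ± 68.2) over rim (191 ± 87.8) to lung (94.4 ± 38.2), with rim and lung not separated by the test. Fn1 followed the order core (13775 ± 4738), rim (7931 ± 2699.9) and lung (5568 ± 3017), and only core against lung passed. Tnc was low in lung (23.2 ± 12.3), with rim (145 ± 62.9) and core (88.9 ± 37.0) not separated. For Sparc the lowest mean was in rim (224 ± 59.2), with core (308 ± 32.1) and lung (342 ± 70.2) not separated. Without Rat3789 the lung means (± SD, n = 4) were 18.5 ± 11.2 CPM for Ccn2, 79.3 ± 7.65 for Ccn1, 87.0 ± 39.8 for Thbs1, 4263 ± 884 for Fn1, 25.9 ± 12.4 for Tnc and 315 ± 38.7 for Sparc, with rim and lung then separated for Fn1.

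Host genes of lung and tumor compare whole tissues, lung parenchyma with tumor stroma, and all 5 alveolar and airway markers were higher in lung than in rim. Against the rim 4 of 8 host members were lower in lung and 0 higher, where 11.6% of 13841 genes were called lower and 10.5% higher. When only total counts set the scale, the median of all rat genes moved from 0.0197 to 0.149 for lung against rim and to 0.140 for lung against core, and the calls over all genes against rim became 2435 higher and 1255 lower instead of 1458 and 1607.

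Host Thbs2 measured 544, 82.5, 45.4, 55.3 and 20.7 CPM in the lung libraries. Rat3789, whose library lacked alveolar markers, was far above the other 4, and Thbs2 was lower than in rim by -3.31 ± 0.69 (limma adjusted p = 0.00671), or by -4.03 ± 0.33 without Rat3789 (limma adjusted p = 9.18e-06). Without Rat3875 the Thbs2 call was lost (limma adjusted p = 0.0528), and edgeR's quasi-likelihood test did not call it (adjusted p = 0.0507). Host Vcan measured 580.3, 384, 189, 210.3 and 142 CPM and was lower by -1.91 ± 0.34 (limma adjusted p = 0.00285; -2.20 ± 0.24 and 7.35e-05 without Rat3789).

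Host Sparc measured 4295, 3127, 2311, 2282 and 2374 CPM and was lower than in rim by -1.72 ± 0.24 (limma adjusted p = 0.000730; -1.88 ± 0.20 and 4.64e-05 without Rat3789). Rat3789 held the highest value of the lung libraries for both Vcan and Sparc, beside its high fibroblast markers. Host Ccn1 measured 70.1, 99.9, 108, 149 and 217 CPM and was lower by -1.09 ± 0.27 (limma adjusted p = 0.0168; -0.90 ± 0.23 and 0.0142 without Rat3789), a call lost without Rat3869, Rat3875 or Rat3876 (highest limma adjusted p = 0.0920). The 5 fibroblast markers in the table were lower in lung than in rim too, with a median of -3.81, and their part in these differences was not tested.

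The remaining host members were not called between lung and rim. Tnc, at 231, 1141, 486, 896 and 500.0 CPM, differed by -1.12 ± 0.40 (limma adjusted p = 0.0700; -0.80 ± 0.31 and 0.0773 without Rat3789). Fn1, at 4235, 6744, 3889.8, 3351 and 2956 CPM, differed by -0.70 ± 0.25 (limma adjusted p = 0.0674; -0.71 ± 0.25 and 0.0566 without Rat3789). Thbs1, at 474, 374, 469, 392 and 485 CPM, had the smallest relative spread of the host members across lungs and differed by -0.46 ± 0.30 (limma adjusted p = 0.309; -0.49 ± 0.32 and 0.292 without Rat3789). Ccn2, at 219, 609, 431, 545 and 752 CPM, differed by -0.96 ± 0.41 (limma adjusted p = 0.121; -0.68 ± 0.35 and 0.180 without Rat3789). With the rat as a block, Tnc and Ccn2 were called lower (limma adjusted p = 0.0396 and 0.0199).

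Against the core 1 of 8 host members was higher in lung and 0 lower, where 17.9% of 13579 genes were called higher and 14.9% lower. This was Fn1, at 0.71 ± 0.24 (limma adjusted p = 0.0457), and the call was lost in each of the fits without Rat3789, Rat3867, Rat3869, Rat3875 or Rat3876 (limma adjusted p = 0.0537 to 0.156). With the pellet's same-gene rate subtracted, which takes 41.0 to 77.8% of core and 3.21 to 13.6% of lung reads on rat Fn1, the Fn1 difference was 1.98 ± 0.34 (limma adjusted p = 0.00172). Without Rat3789 the called members were Tnc, higher by 1.31 ± 0.35 (limma adjusted p = 0.0126), and Thbs2, lower by -2.09 ± 0.45 (limma adjusted p = 0.00376). With all 5 libraries, Tnc differed by 0.98 ± 0.43 and Thbs2 by -1.38 ± 0.74, neither called (limma adjusted p = 0.0993 and 0.175). With the rat as a block and no library left out, Tnc at 1.23 ± 0.30 and Thbs2 at -2.42 ± 0.18 were called (limma adjusted p = 0.0147 and 8.52e-05), and Fn1 was not (limma adjusted p = 0.0820). Which host members were called between lung and core thus depended on the libraries included and on the block. The other 5 members ran from -0.53 for Ccn1 to 0.31 for Sparc and were not called, and for Ccn2 and Vcan the sign changed without Rat3789 (0.11 and -0.23).

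The 4T1 pellet gave a reference for the tumor cells, with a single library and therefore no test. It was compared by CPM over total reads. Fn1 was at 427 CPM in the pellet (95% Poisson interval 419.9 to 435, counting error only), and the mean level was 31.2 times as high in core, 18.6 times in rim and 13.3 times in lung. Each tumor and lung library exceeded the pellet. Tnc was at 14.8 CPM in the pellet, with ratios of 5.81 in core, 9.80 in rim and 1.62 in lung.

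Sparc showed the smallest spread around the pellet of the members compared: it was at 314 CPM there, with ratios of 0.951 in core, 0.714 in rim and 1.12 in lung. Thbs1 at 76.0 CPM had ratios of 5.54, 2.52 and 1.28 in the same order. The CCN genes lay on both sides of the pellet. Ccn1 at 129 CPM had ratios of 2.13 in core, 0.707 in rim and 0.631 in lung, and Ccn2 at 36.6 CPM had 7.69, 2.76 and 0.591. Vcan had 10 reads in the pellet, and Thbs2 had 0 reads of 29446694, which allows up to 3 counts (one-sided 95% limit), so no ratio is given for either. Without Rat3789 the lung ratios were 10.4 for Fn1, 1.82 for Tnc, 1.04 for Sparc, 1.19 for Thbs1, 0.642 for Ccn1 and 0.524 for Ccn2.

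The gland libraries are a reference for the host, 2 libraries that differed from each other 2.10- to 5.14-fold in reads on the members. Host Tnc was nearly absent there, at 1.21 and 2.99 CPM (25 and 64 reads), and its mean in rim was 1034 and 418 times as high. Host Thbs1 was at 3.04 and 8.23 CPM, with rim ratios of 211 and 77.9. Host Vcan was at 7.93 and 16.5 CPM, with rim ratios of 122 and 58.4.

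Sparc was already abundant in the gland, at 1056 and 2149 CPM, and the rim exceeded it by only 8.53 and 4.19 times. Fn1, at 208 and 664 CPM, had rim ratios of 30.8 and 9.67. Thbs2, at 23.3 and 116 CPM, had rim ratios of 31.2 and 6.27. Ccn1 and Ccn2 had rim ratios of 28.6 and 5.81, and of 61.3 and 19.4. These ratios set tumor stroma against muscle-rich tissue, and the part of that difference in them was not tested.

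Related matrix genes that are not members were read from a list of 35 (other CCN proteins, thrombospondins, tenascins, fibulins, nidogens, galectins and proteoglycans). In tumor cells 16 could be tested between core and rim, of which 7 were higher in core and 0 lower. They included Tnr, the nervous-system tenascin, at 5.81 ± 0.78 (limma adjusted p = 0.00279), Ccn5 at 3.32 ± 0.20 (limma adjusted p = 0.000318) and Tnn at 2.23 ± 0.35 (limma adjusted p = 0.00447). Tnr and Tnn were low, with core means of 12.3 ± 11.2 and 1.31 ± 0.122 CPM (SD, n = 5). In the host 25 were tested, with 18 lower and 1 higher. The lower ones were led by Thbs4 at -5.00 ± 0.68, Ccn5 at -4.61 ± 0.66 and Ccn4 at -3.78 ± 0.42 (limma adjusted p = 0.000864, 0.00108 and 0.000341). The higher one was Lgals3, a galectin, at 1.50 ± 0.13 (limma adjusted p = 0.000143). Lgals3 was called higher in core in tumor cells too, at 0.91 ± 0.15 (limma adjusted p = 0.00576). Ccn5 was thus higher in core in tumor cells and lower in core in the host.

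Receptors for these glycoproteins (a list of 22 genes with integrins, syndecans, Cd44 and Cd47) showed changes in both directions in tumor cells. Of 19 tested between core and rim, 3 were higher and 4 lower. Integrin genes were on both sides: Itgb8 at 3.31 ± 0.56 (limma adjusted p = 0.00590) and Itga8, a partner for RGD ligands, at 2.55 ± 0.18 (limma adjusted p = 0.000393) were higher, and the collagen receptor Itga2 at -2.25 ± 0.18 (limma adjusted p = 0.000506) was lower. Syndecan genes were also split, with Sdc4 higher at 0.48 ± 0.11 (limma adjusted p = 0.0190) and Sdc1 lower at -1.04 ± 0.17 (limma adjusted p = 0.00487). In the host, 12 of 20 were lower in core and 2 higher. Egfr at -3.14 ± 0.23 (limma adjusted p = 8.66e-05) led the lower ones, and Cd44, the hyaluronan receptor, at 1.20 ± 0.12 (limma adjusted p = 0.000232) led the higher ones.

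Ccn1 and Ccn2 are standard targets of Yap and Taz, and 20 further targets were read beside them. In tumor cells 5 of 17 were higher in core and 2 lower. The higher ones were led by Ccdc80 at 4.66 ± 0.47 (limma adjusted p = 0.000914), Crim1 at 1.38 ± 0.16 (limma adjusted p = 0.00148) and Asap1 at 1.21 ± 0.15 (limma adjusted p = 0.00198), and the lower ones were Dock5 at -0.85 ± 0.093 and Myof at -0.49 ± 0.11 (limma adjusted p = 0.00133 and 0.0181). Ccdc80 was low, at 4.23 ± 4.51 CPM in core and 0.140 ± 0.099 CPM in rim (mean ± SD). It passed the filter only through its cores, and the size of its difference rests on rims near the limit of detection. Called targets thus lay in both directions, 10 of the 17 were not called, and the median of the 17 was 0.562. Whether the targets moved together was not tested. In the host 9 of 19 were lower in core and 2 higher, with Ccdc80 at -2.66 ± 0.28 (limma adjusted p = 0.000286) and Ptpn14 at -2.16 ± 0.20 (limma adjusted p = 0.000158) lowest and Igfbp3 at 1.59 ± 0.42 (limma adjusted p = 0.0190) highest. Core and rim members of all 3 lists are read against the same shares of called genes given above.

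In lung tumor cells against rim, the relatives gave 2 higher and 2 lower of 12, the receptors 0 higher and 5 lower of 19, and the Yap and Taz targets 2 higher and 3 lower of 17. Ccn5 was higher in lung by 3.05 ± 0.46 (limma adjusted p = 0.00136), and Itgb3, whose product pairs with the alpha v integrin to bind fibronectin, was lower by -2.57 ± 0.50 (limma adjusted p = 0.00506). The Yap and Taz targets called lower were Igfbp3 at -1.76 ± 0.51, Nuak2 at -1.13 ± 0.27 and Ankrd1 at -0.66 ± 0.14 (limma adjusted p = 0.0301, 0.0132 and 0.00689), and those called higher were Ccdc80 at 4.90 ± 0.60 and Ptpn14 at 0.45 ± 0.11 (limma adjusted p = 0.000522 and 0.0135). Ccdc80 passed the filter here only through the lung libraries, at 4.81 ± 4.38 CPM against 0.140 ± 0.099 CPM in rim (mean ± SD). Over all mouse genes, 9.91% were called higher and 10.2% lower. Against core the relatives gave 2 higher and 7 lower of 16, the receptors 1 and 7 of 19, and the Yap and Taz targets 1 and 10 of 17, where 17.1% of all mouse genes were called higher and 19.1% lower. Without Rat3789 the counts against rim were 2 and 2 of 12, 0 and 8 of 19, and 1 and 3 of 16. Ccdc80 was then no longer tested. The counts against core were 2 and 6 of 16, 1 and 7 of 19, and 2 and 10 of 17. Against rim, Ccn5 was then at 2.85 ± 0.47 and Itgb3 at -2.94 ± 0.44 (limma adjusted p = 0.00278 and 0.00171). Igfbp3 was then at -2.18, Nuak2 at -1.28, Ankrd1 at -0.65 and Ptpn14 at 0.45, each called.

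The Yap and Taz targets lower in lung than in core included Igfbp3 at -2.75 ± 0.58 and F3 at -1.64 ± 0.22 (limma adjusted p = 0.00278 and 0.000151). Without Rat3789 they were at -3.17 ± 0.52 and -1.55 ± 0.23 (limma adjusted p = 0.000541 and 0.000253). In the host, lung against rim gave 1 higher and 15 lower of 26 relatives, 3 and 5 of 21 receptors, and 1 and 3 of 19 Yap and Taz targets, beside 10.5% higher and 11.6% lower over all rat genes. Host lung against core gave 9 higher and 2 lower of 24 relatives, 8 and 2 of 21 receptors, and 11 and 1 of 19 targets, beside 17.9% higher and 14.9% lower over all rat genes. Among these, Spock2 was higher in lung than in core by 4.35 ± 1.04 and Ankrd1 by 4.45 ± 1.24 (limma adjusted p = 0.00908 and 0.0184). Without Rat3789 they differed by 5.52 ± 0.35 and 5.87 ± 0.32 (limma adjusted p = 9.53e-07 and 3.22e-07). Without Rat3789 the host counts were 2 and 16 of 26, 5 and 5 of 21, and 6 and 5 of 19 against rim, and 9 and 4 of 23, 9 and 2 of 21, and 11 and 1 of 19 against core.

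The genes whose log2 levels followed each member most closely over the 15 tumor and lung libraries were found by Pearson correlation among 13448 mouse and 14126 rat genes. The libraries share rats and tissues, so the values describe likeness across 3 tissues. Mouse Ccn1 was closest to Amotl2 (r = 0.955), which is also on the Yap and Taz list, then Cd74 (0.946). Mouse Ccn2 was closest to Prxl2a (0.951), Thbs1 to Tifa (0.967), Fn1 to Ube2h (0.952), Tnc to Gm50321 (0.935) and Sparc to Ly9 (0.894).

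Among the host members, Sparc was closest to Fkbp9 (r = 0.989), Fkbp10 (0.984) and Loxl1 (0.982), and host Thbs2 to Clec11a (0.976) and the collagen gene Col1a1 (0.973), which is on the fibroblast marker list. Host Vcan was closest to Lima1 (0.975), Fn1 to Rftn2 (0.932), Tnc to Ift43 (0.922), Ccn1 to Fchsd1 (0.916), Ccn2 to Optn (0.884) and Thbs1 to Ggnbp2 (0.856). Host Thbs1 had the lowest of these top values.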

How the data were processed

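PolyA libraries of tumor core, tumor rim and lung (5 each), of mammary gland (2) and of a 4T1 pellet (1) were used. The submitters' processing notes name the mouse build GRCm38, the rat build Rnor_6.0 and, as tools of the authors, STAR, Trim Galore, limma and featureCounts. The sources used here do not give versions, strand settings or how reads were split by species. For tumor and lung, the authors deposited a normalized signal per gene, in 1 table per species, scaled separately; with 0.5 added to the reads and 1 factor per library the values come out as whole reads (100% of them, within 0.01 reads), so they are read here as voom CPM. The authors deposited the controls as whole counts of reads; these are given as CPM over total reads, without the normalization factor of the tumor libraries. Of the columns, 0 lacked a sample. The names gland library 1 and 2 come from the deposited columns, which could not be tied to a replicate label.

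The main test was a two-sided trend fit in limma 3.58.1 (R 4.3.3) to the log2 of the signal, adjusted over all tested genes; 0.5 read is built into the values, which understates changes of low genes. The rat was a block for core against rim, since the labels name the animal of each region. Deviations of the 2 regions of a rat correlated at -0.01, 0.16, 0.24, 0.19 and -0.18 over mouse genes and at 0.03, 0.03, 0.09, 0.09 and 0.34 over rat genes (Rat3867, Rat3869, Rat3875, Rat3876 and Rat3877). Lung comparisons had no block, because only 4 animals gave both tissues. Libraries of these animals were thus treated as independent there, and the block was run as an alternative. Alternatives were other scalings, edgeR 4.0.16, limma-voom, DESeq2 1.42.0 size factors, other filters, 1 CPM added, each rat left out, and subtraction of misplaced reads; the rates of single gland libraries and the library-total rate were added after seeing the data. The fit was tested on simulated data. The members, the 3 gene lists and the markers were chosen with earlier results of these data known. All 8 members were named in both species; list genes were named by size of change, up to 3 in a direction. Mouse positions, lengths and coding sequences come from GENCODE M21. Poisson intervals hold counting error alone: the reads carry no molecular identifiers and may be copies of 1 molecule.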

Additional observations from a re-analysis of the deposited data

Results flagged for a closer look

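Of 48 groups of 5 libraries examined for a library far from the others, 5 held one, and chance alone picks out about 1 in 20 groups. In the tumor cells, Fn1 of the library labelled lung of Rat3789 was at 10789 CPM, while the other lungs ran from 3312 to 5406 CPM. Host Thbs2 in the same library was at 544 CPM, against 20.7 to 82.5 CPM in the other lungs, in a library whose alveolar markers were nearly absent. Mouse Thbs2, a gene of few reads, stood out in 1 library of each tissue: 6.60 CPM in the core of Rat3877 (others 0.457 to 1.95), 1.38 CPM in the lung of Rat3875 (others 0.387 to 0.590) and 1.22 CPM in the rim of Rat3876 (others 0.0693 to 0.175).

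Tumor cells and host differed in their core minus rim difference for 6 genes in the direct limma test within animals: Ccn2 by 2.60, Sparc by 2.53, Ccn1 by 2.20, Fn1 by 2.17, Vcan by 1.60 and Tnc by 1.44, each with the mouse difference above the rat difference in 5 of 5 animals.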

How the results depend on the processing

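Counts of called members stayed within 1.5 times of the reported count for host core against rim, tumor-cell lung against core and the mouse minus rat difference under every alternative run. Called members were 5 instead of 3 for tumor-cell core against rim with the joint same-gene rate and with that of gland library 2 subtracted. For tumor-cell lung against rim they were 1 instead of 3 with the rate of gland library 1, and 1 to 4 with a rat left out. They were 2 to 4 instead of 4 for host lung against rim with a rat left out, and for host lung against core they were 0 instead of 1 with upper-quartile scaling and without the filter, and 0 to 2 with a rat left out.

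With the rat as a replicate block, called members were 5 instead of 3 for tumor-cell lung against rim and 2 instead of 1 for host lung against core, where Vcan turned to -0.32; beyond the calls named in the results, the block (or its removal for core against rim) gave Tnc 1.23 and Thbs2 -2.42 as calls for host lung against core, lost Fn1 there, and changed no other call.

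Signs turned for members that were not called as reported, and some turned values were themselves called: mouse core against rim became higher for Vcan under all 3 same-gene subtractions and for Tnc with gland library 1. With same-gene rates subtracted (both glands, library 1, library 2), mouse core against rim became 4.65, 8.90 and 0.50 for Tnc and 5.17, 4.19 and 5.06 for Vcan, and mouse lung against rim became 1.64, 1.71 and 1.57 for Vcan; several of these rest on libraries left with 0 reads and are no bounds. Host Thbs1, core against rim, became 0.0096 with total-count and 0.00090 with upper-quartile scaling, 0.0031 in edgeR, 0.050 without Rat3876, 0.33 without Rat3877 (range with a rat left out -0.21 to 0.33) and 0.52 without both. Mouse Ccn1, lung against rim, was 0.061 without Rat3869 (range -0.30 to 0.061), and mouse Vcan, lung against core, 0.015 without Rat3876 (range -0.70 to 0.015). For host lung against core, Ccn2 became 0.032 with the pellet rate subtracted, 0.11 without Rat3789 and 0.17 without Rat3875 (range -0.68 to 0.17), and Vcan -0.23 without Rat3789, -0.032 without Rat3867 and -0.13 without Rat3869 (range -0.23 to 0.36). The cause was not tested.

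Over all genes, total-count scaling changed the calls from 1285 higher and 1318 lower to 1717 and 1108 (mouse lung against rim), from 2237 and 2499 to 3053 and 1875 (mouse lung against core) and from 2428 and 2024 to 3010 and 1454 (host lung against core). Leaving out rats lowered calls over all genes by over 1.5 times, to 589 higher and 582 lower from 1326 and 1259 for mouse core against rim without Rat3875, and, without Rat3876 and Rat3877, to 1364 and 1727 from 2373 and 2719 (host core against rim), 326 and 525 (mouse lung against rim), 802 and 768 (mouse lung against core), 283 and 669 from 1458 and 1607 (host lung against rim), 485 and 485 (host lung against core) and 1180 and 862 from 1871 and 1617 (mouse minus rat difference); fewer libraries enter these fits. Depth limits mouse Thbs2 and Vcan, with at most 139 and 49 reads a library.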
